A study of Drosophila melanogaster with 6 samples.

Results

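The cytosolic tRNAs that carry cysteine, tryptophan, selenocysteine and phenylalanine were examined in larval brains of *Drosophila melanogaster*. These tRNAs were taken as every nuclear entry of the tRNA table whose name starts with Cys, Trp, SeC or Phe. This gave 8 of the 84 nuclear isodecoders and of the 106 tRNAs measured, with 4 entries for Cys, 2 for Trp, 1 for SeC and 1 for Phe. The rule goes by name alone, but these amino acids were chosen with earlier results of these data known. An isodecoder is a set of tRNA genes with 1 mature sequence, and isodecoders of the same anticodon form an anticodon group. Names follow the table, which writes the anticodon in DNA letters. An X in the last place stands for several genes with identical mature sequence.

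The data came from 2 kinds of whole brain from L3 larvae grown at 25 °C, with 3 samples of each. The neuroblast-biased brains had the genotype insc-Gal4>UAS-aPKC_caax. In these, the neuroblast driver insc-Gal4 expresses a membrane-targeted form of the kinase aPKC, so that the neural stem cells divide symmetrically and accumulate in place of neurons. The neuron-biased brains were from the wild-type strain Oregon R, given as Oregon-R-P2 in the study's methods. Both are mixtures of cells of an intact brain, and no sorting step separated neuroblasts from neurons, glia or other cells. A smaller number of cells of a type and less tRNA per cell therefore cannot be told apart. The values are called neuroblast and neuron data below.

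Each tRNA was quantified by hydro-tRNAseq, which breaks tRNAs into short pieces by mild alkaline hydrolysis before sequencing so that modified bases and tight folds stop fewer reads. The deposited table gives 1 mean of TMM-normalized counts per group, in a unit called TMM here. It holds no value for a single sample, so no spread between the 3 samples of a group can be set beside a difference, and no difference below was tested. The depth of the libraries is unknown. All values are the authors' means, and log2 ratios are neuroblast over neuron.

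As background, cysteine, tryptophan and selenocysteine share the UGN box of the genetic code. UGU and UGC are read by cysteine tRNA with the anticodon GCA, and UGG is read by tryptophan tRNA with the anticodon CCA. UGA is normally a stop codon. In the few mRNAs with a selenocysteine insertion element it is instead read by the selenocysteine tRNA, which is first charged with serine and then converted, and which a dedicated elongation factor brings to the ribosome. Phenylalanine tRNA with the anticodon GAA reads UUU and UUC. Each of these amino acids has a single nuclear anticodon, so its whole cytosolic tRNA pool lies in these entries.

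Trp tRNA was lower and SeC tRNA was higher in neuroblasts, while the Cys and Phe tRNAs differed less. The log2 ratio was −0.92 for the Trp-CCA group, 0.70 for SeC-TCA, −0.09 for Cys-GCA and 0.26 for Phe-GAA. The nuclear tRNAs form 45 anticodon groups when initiator and elongator Met tRNAs, which share an anticodon, are counted apart. Among these groups, Trp-CCA was at rank 4 from the lowest log2 ratio and SeC-TCA at rank 2 from the highest. The Phe-GAA group was at rank 7 and Cys-GCA at rank 15 from the highest. The study's own comparison over replicates does not list Trp, SeC, Cys or Phe among the anticodon groups it reports as significantly different. Of the 8 isodecoders, 1 was lower by at least 0.5 on the log2 scale, against 33.3% of all nuclear isodecoders. Another 2 were higher by at least 0.5, against 8.33% of all nuclear isodecoders. The median log2 ratio was 0.17 over the 8 and −0.27 over all 84. Of the 8, 7 lay above −0.27.

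The nuclear tRNAs as a whole carried less normalized signal in neuroblasts, with a median log2 ratio of −0.27. Whether this is a shift common to every ratio was not tested. With the nuclear median set to 0, each log2 ratio rises by 0.27. Under this scaling 1 of the 8 isodecoders was lower by at least 0.5, against 14.3% of all nuclear isodecoders, and 4 were higher, against 20.2%. Trp-CCA then had a log2 ratio of −0.65, SeC-TCA of 0.97 and Phe-GAA of 0.53. Cys-GCA turned to 0.18. A rise of 0.27 could turn neither SeC, which was positive, nor Trp, which lay further than that below 0. It did turn the sign of the Cys group.

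**Figure D1:**
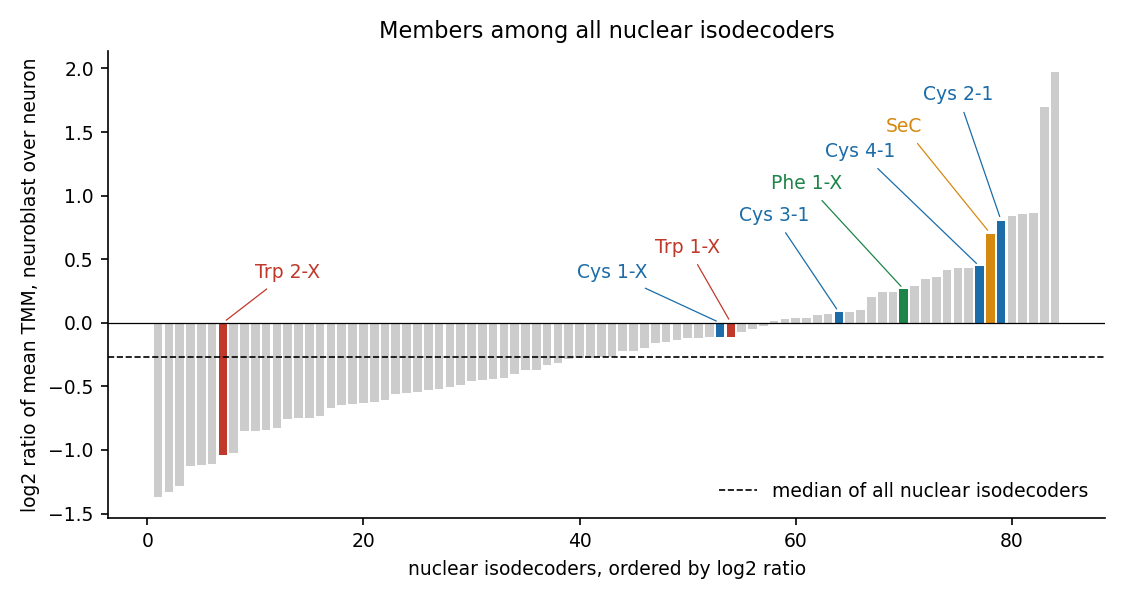
Log2 ratio of the authors' mean TMM, neuroblast over neuron, for each of the 84 nuclear isodecoders in rising order, with the 8 Cys, Trp, SeC and Phe isodecoders in colour. Trp-CCA-2-X stands at rank 7 from the lowest, Cys-GCA-2-1 and SeC-TCA-1-1 at ranks 6 and 7 from the highest, and the dashed line marks the nuclear median of −0.27.

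Trp-CCA-2-X, the main Trp tRNA, had a mean of 39053 TMM in neuroblasts and 80170 TMM in neurons. This is a log2 ratio of −1.04, the mean in neurons being 2.05 times that in neuroblasts. It was the only one of the 8 isodecoders at least 0.5 lower, and its log2 ratio was at rank 7 from the lowest of all 84. The minor Trp tRNA, Trp-CCA-1-X, had 7687 TMM in neuroblasts and 8296 TMM in neurons, a log2 ratio of −0.11. With the nuclear median set to 0 this ratio becomes 0.16, whereas that of Trp-CCA-2-X stays negative at −0.77. The 2 isodecoders read the same codon, and their log2 ratios differed by 0.93 under any scaling of the groups. The composition of the Trp group differed accordingly. Of the signal of the Trp group, Trp-CCA-2-X held 83.6% in neuroblasts and 90.6% in neurons, being 5.08 times as abundant as Trp-CCA-1-X in neuroblasts and 9.66 times in neurons. Summed over both, the group had 46739 TMM in neuroblasts and 88466 TMM in neurons.

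SeC-TCA-1-1, the single selenocysteine tRNA, differed in the other direction. Its mean was 63381 TMM in neuroblasts and 38963 TMM in neurons, a log2 ratio of 0.70. The neuroblast mean was 1.63 times the neuron mean, and the log2 ratio was at rank 7 from the highest of the 84. The tRNA comes from 1 gene. Among the 38 nuclear isodecoders of 1 gene, its level per base of gene was at rank 13 in neuroblasts and at rank 19 in neurons. At 87 bases its gene is longer than those of the other 7 isodecoders, which are 72 or 73 bases long. The selenocysteine tRNA is known for its long acceptor and variable arms.

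The level of SeC tRNA relative to Trp tRNA differed between the groups. Per base of gene, SeC tRNA had 1.12 times the summed Trp signal in neuroblasts and 0.364 times in neurons. In TMM without regard to length the same ratio was 1.36 in neuroblasts and 0.440 in neurons. The difference between both log2 ratios was 1.62, and it is independent of how the groups are scaled. In neuroblasts both lay close to each other per base, so their order there cannot be told without the spread between samples.

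Within the UGN box, Cys tRNA held the largest share of signal in both groups. Cys made up 64.1% of the summed TMM of Cys, Trp and SeC in neuroblasts and 62.1% in neurons. Trp made up 15.3% in neuroblasts and 26.3% in neurons. The share of SeC was 20.7% in neuroblasts and 11.6% in neurons. The summed signal of the box differed little, with 306417 TMM in neuroblasts and 336121 TMM in neurons, a log2 ratio of −0.13. The sign of this ratio depends on the scaling, since it was 0.13 with the nuclear median set to 0.

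**Figure D2:**
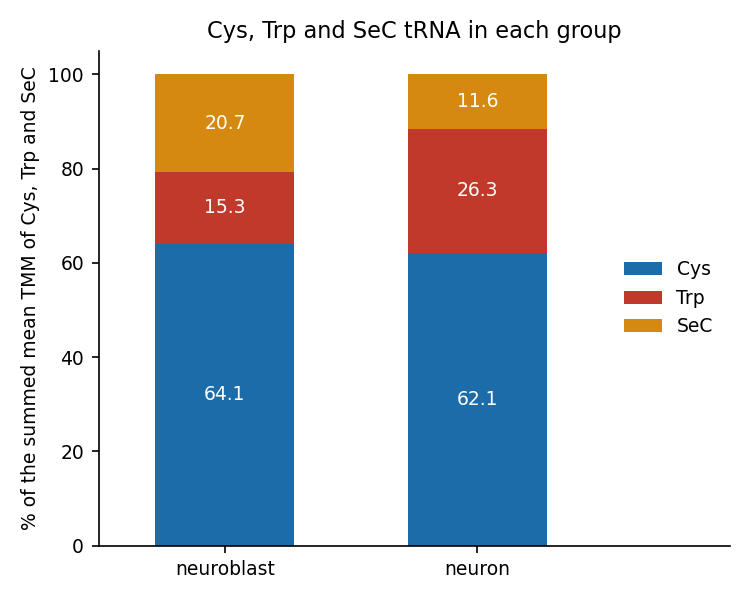
Share of the summed mean TMM of Cys, Trp and SeC tRNA, in percent, for neuroblasts on the left and neurons on the right. The Cys share is 64.1% in neuroblasts and 62.1% in neurons, with Trp at 15.3% in neuroblasts and 26.3% in neurons and SeC at 20.7% in neuroblasts and 11.6% in neurons.

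Cysteine was carried almost entirely by 1 isodecoder. Cys-GCA-1-X had a mean of 181627 TMM in neuroblasts and 196316 TMM in neurons, a log2 ratio of −0.11, or 0.15 with the nuclear median set to 0. It made up 92.5% of the TMM of the Cys group in neuroblasts and 94.1% in neurons. The other 3 isodecoders are rare by comparison. They were chosen as rare by their level over both groups, without use of the log2 ratio.

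Cys-GCA-3-1, the highest of the rare isodecoders, had 9730 TMM in neuroblasts and 9192 TMM in neurons, a log2 ratio of 0.08. Cys-GCA-2-1 had 2749 TMM in neuroblasts and 1574 TMM in neurons, a log2 ratio of 0.80 and rank 6 from the highest among all nuclear isodecoders. Cys-GCA-4-1 had 2190 TMM in neuroblasts and 1610 TMM in neurons, a log2 ratio of 0.44. All 3 rare isodecoders were thus higher in neuroblasts on the values as deposited. Setting the nuclear median to 0 only raises log2 ratios. It could therefore turn the sign of Cys-GCA-1-X, as it did, but not that of the 3 rare isodecoders. In neurons, Cys-GCA-2-1 and Cys-GCA-4-1 were the 2 lowest of the 84 nuclear isodecoders per base of gene, at ranks 84 and 83. In neuroblasts they were at ranks 80 and 82.

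The Cys genes are all 72 bases long, so gene length does not enter the ratios between their isodecoders. Cys-GCA-1-X was 18.7 times as abundant as Cys-GCA-3-1 in neuroblasts and 21.4 times in neurons. It was 66.1 times as abundant as Cys-GCA-2-1 in neuroblasts and 125 times in neurons. For Cys-GCA-4-1 the ratio was 82.9 in neuroblasts and 122 in neurons. Together the rare isodecoders had 14669 TMM in neuroblasts and 12377 TMM in neurons, or 7.47% of the group in neuroblasts and 5.93% in neurons. Their summed log2 ratio was 0.25 and exceeded that of Cys-GCA-1-X by 0.36. Their sum was higher by 2293 TMM in neuroblasts, while Cys-GCA-1-X was lower by 14689 TMM, so the ratio of the group, −0.09, was close to that of the abundant isodecoder. Reads that matched several isodecoders were divided between them, and the part of this division in the values of the rare Cys isodecoders was not tested.

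**Figure D3:**
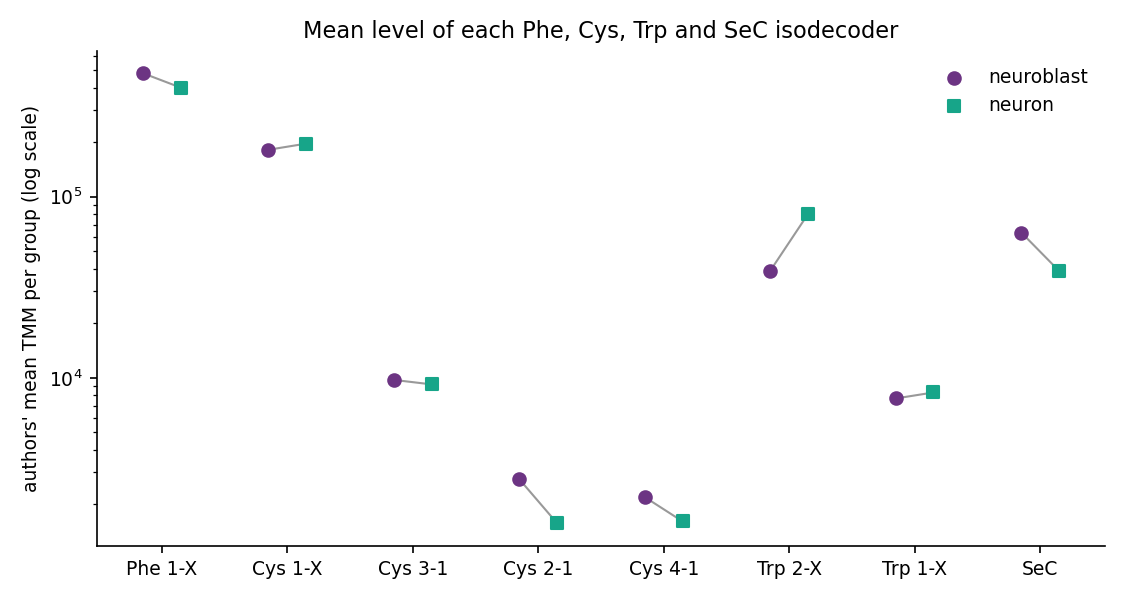
The authors' mean TMM of the 8 isodecoders on a log scale, with neuroblasts as circles on the left of each pair and neurons as squares on the right. Levels run from 480521 TMM for Phe-GAA-1-X in neuroblasts to 1574 TMM for Cys-GCA-2-1 in neurons, and the line of Trp-CCA-2-X slopes against that of SeC-TCA-1-1.

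Other isodecoders of low level did not share 1 direction. Of the nuclear isodecoders with an average below 10000 TMM over both groups, 18 were not Cys tRNAs. Of these, 8 were higher and 10 were lower in neuroblasts, with log2 ratios from −1.29 to 1.97 and a median of −0.19. Among them, 4 were higher and 6 were lower by at least 0.5. With the nuclear median set to 0, 9 of the 18 were higher. The log2 ratios of the rare Cys isodecoders, from 0.08 to 0.80, lay within this range.

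**Figure D4:**
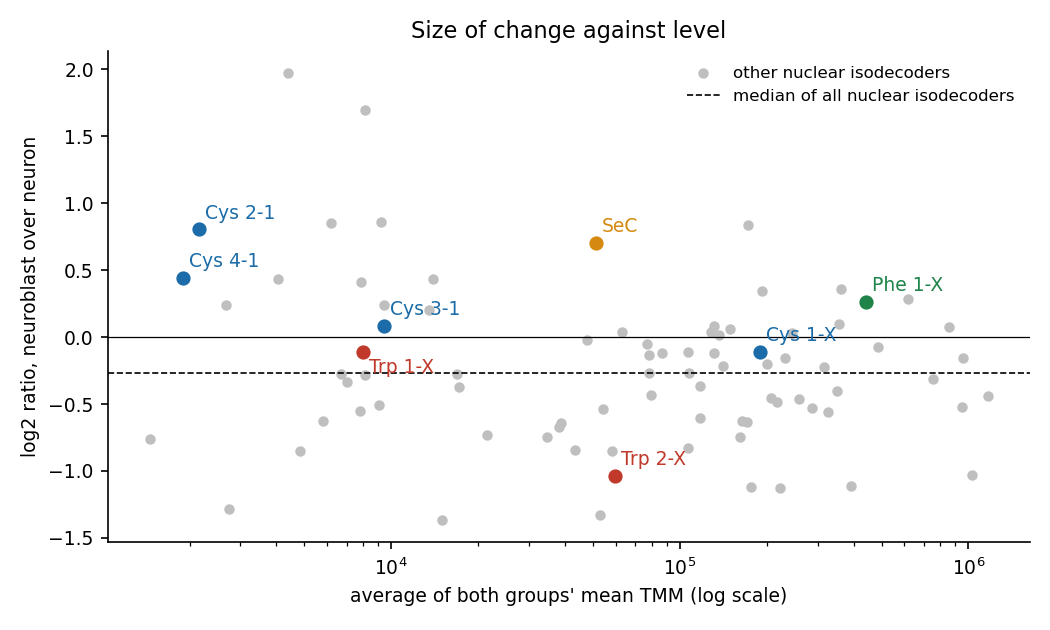
Log2 ratio, neuroblast over neuron, against the average of both groups' mean TMM on a log scale, for the 84 nuclear isodecoders. The rare Cys isodecoders lie between 0.08 and 0.80 at the low end, where other isodecoders run from −1.29 to 1.97, while SeC-TCA-1-1 at 0.70 and Trp-CCA-2-X at −1.04 have similar average levels.

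Phenylalanine has a single isodecoder, Phe-GAA-1-X, the most abundant of the 8. Its mean was 480521 TMM in neuroblasts and 400503 TMM in neurons, a log2 ratio of 0.26. It held 3.57% of the summed nuclear TMM in neuroblasts and 2.42% in neurons. Per base of gene it was at rank 8 of the 84 nuclear isodecoders in neuroblasts and at rank 10 in neurons. These ranks use gene lengths with introns, such as 186 bases for Tyr-GTA-1-X, and can differ from ranks by mature length. The difference of 80018 TMM was the largest of the 8 in absolute terms, although its log2 ratio was below 0.5 on the values as deposited. With the nuclear median set to 0 the ratio was 0.53.

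In neuroblasts, the isodecoders ran from the highest to the lowest level per base in the order Phe-GAA-1-X, Cys-GCA-1-X, SeC-TCA-1-1, Trp-CCA-2-X, Cys-GCA-3-1, Trp-CCA-1-X, Cys-GCA-2-1 and Cys-GCA-4-1. In neurons, Trp-CCA-2-X stood above SeC-TCA-1-1, and Cys-GCA-4-1 stood above Cys-GCA-2-1. Per base, Trp-CCA-2-X had 542 TMM in neuroblasts and 1113 TMM in neurons, and SeC-TCA-1-1 had 729 TMM in neuroblasts and 448 TMM in neurons. Cys-GCA-2-1 and Cys-GCA-4-1 had 21.9 and 22.4 TMM per base in neurons. Without a spread between samples, none of the neighbours in either order can be called different.

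Other amino acids with a single nuclear anticodon, leaving aside Met with its initiator and elongator tRNAs, covered much of the same range. The log2 ratio was −1.12 for Tyr, −0.40 for Asp, −0.16 for His and 0.07 for Asn, each summed over its isodecoders. Trp therefore stood next to Tyr, and SeC had the highest log2 ratio of the 8 amino acids of this kind, above Phe. Among the other nuclear isodecoders, the 2 with a log2 ratio nearest to that of SeC-TCA-1-1 were Ser-TGA-1-1 at 0.84 and Arg-TCG-2-X at 0.85. The 2 nearest to Trp-CCA-2-X were Gly-GCC-1-X at −1.03 and Tyr-GTA-1-X at −1.11. Likeness here means only a small difference in 1 ratio of 2 group means.

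The mitochondrial tRNAs for Cys, Trp and Phe were higher in neuroblasts, as were 19 of all 22 mitochondrial tRNAs, whose median log2 ratio was 0.79. Mitochondrial Trp tRNA, whose anticodon UCA also reads UGA, had 17539 TMM in neuroblasts and 9328 TMM in neurons, a log2 ratio of 0.91 against −0.92 for the nuclear Trp group. Mitochondrial Cys tRNA had a log2 ratio of 1.11 and mitochondrial Phe tRNA one of 0.91.

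The 8 isodecoders come from 24 genes, located here in RefSeq on Release 6 of the genome, with 8 genes for Phe-GAA-1-X, 6 for Trp-CCA-2-X, 4 for Cys-GCA-1-X, 2 for Trp-CCA-1-X and 1 for each of the others. The gene of SeC-TCA-1-1 is on chromosome 2R (11357564 to 11357650) and overlaps no other gene. The 4 genes of Cys-GCA-1-X lie within 1854 bases on chromosome 3L, from 3095737 to 3097590, inside the span of *Cht7*, a gene of the chitinase family. The 3 rare Cys genes are on the same arm but apart from this cluster. Cys-GCA-2-1 lies from 1925641 to 1925712 inside the span of the homeobox gene *Dbx*. Cys-GCA-3-1 lies from 2273744 to 2273815 in no other gene, and Cys-GCA-4-1 from 21854094 to 21854165 inside the span of *mub*, which encodes an RNA-binding protein. The rare Cys isodecoders thus differ from the abundant one both in gene number and in place.

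Both genes of Trp-CCA-1-X lie on chromosome 2R from 20657891 to 20658175, inside the span of *Lrt*. Of the 6 genes of Trp-CCA-2-X, 1 lies on chromosome 2L from 4418977 to 4419048 inside the span of *CG15431*. The other 5 lie on 2R, where the first starts at 18639557 and the last ends at 21182749. The Phe genes are spread over 4 chromosome arms, with 2 on X, 1 on 2L, 2 on 2R and 3 on 3R. In all, 13 of the 24 genes lie inside the span of a protein-coding gene and 11 in none. The same share over all nuclear tRNA genes was not calculated, so these counts have no background. The annotation used gives spans without strand or exons, so exonic and intronic positions were not told apart, and the mean of an isodecoder does not show which of its genes was transcribed.

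The level per gene differed widely among the 8. Divided by gene number, SeC-TCA-1-1 had 63381 TMM in neuroblasts and 38963 TMM in neurons, and Phe-GAA-1-X had 60065 TMM in neuroblasts and 50063 TMM in neurons. Levels per gene are not divided by length, and the gene of SeC-TCA-1-1 has 87 bases against 73 for Phe-GAA-1-X. Cys-GCA-1-X had 45407 TMM per gene in neuroblasts and 49079 TMM in neurons. Trp-CCA-2-X had 6509 TMM per gene in neuroblasts and 13362 TMM in neurons, and the median over all nuclear isodecoders was 30264 TMM in neuroblasts and 42713 TMM in neurons. Trp-CCA-1-X was lower than Trp-CCA-2-X, with 3843 TMM per gene in neuroblasts and 4148 TMM in neurons. The rare Cys isodecoders have 1 gene each, so their level per gene is the mean given above, with Cys-GCA-4-1 in neuroblasts and Cys-GCA-2-1 in neurons the lowest of the 8. Among the 16 nuclear isodecoders of 6 or more genes, Trp-CCA-2-X had the lowest level per base in both groups. The next lowest was Pro-AGG-1-X, with 1068 TMM per base in neuroblasts and 1898 TMM in neurons.

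**Figure D5:**
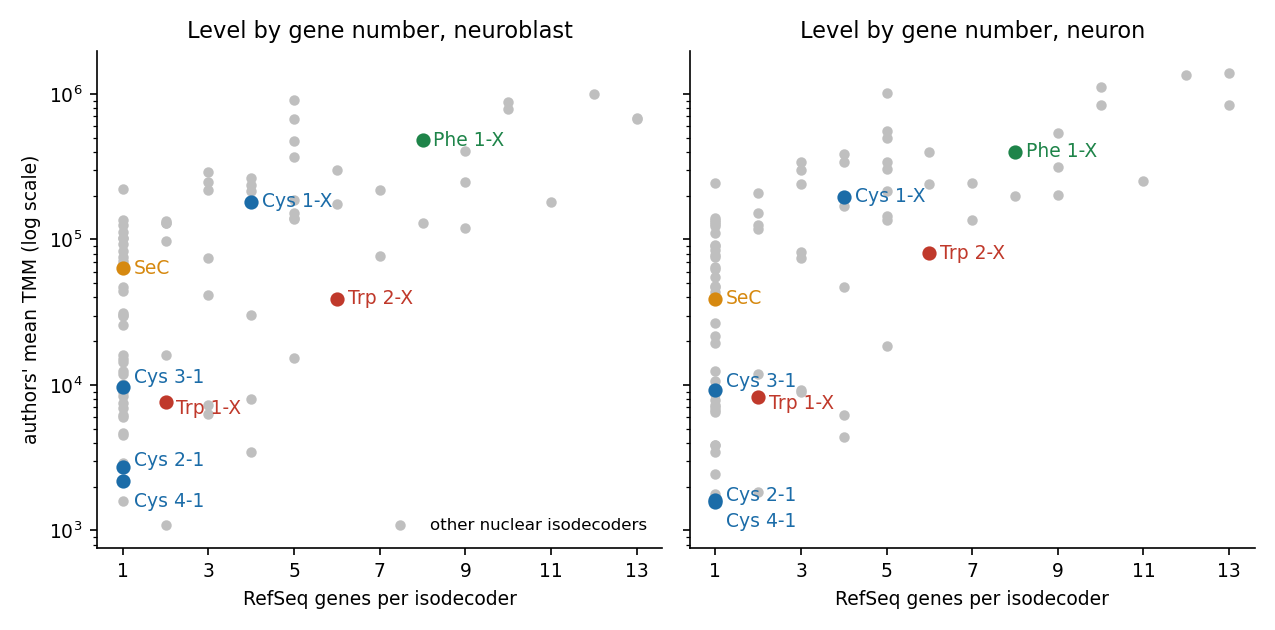
The authors' mean TMM on a log scale against the number of RefSeq genes per isodecoder, for neuroblasts in the left panel and neurons in the right, with the 8 isodecoders in colour. Trp-CCA-2-X, with 6 genes, lies below all other isodecoders of as many genes or more, and SeC-TCA-1-1 has a mean of 63381 TMM in neuroblasts from 1 gene.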

How the data were processed

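Neuroblast-biased and neuron-biased larval brains were compared, with 3 biological replicates each. According to the study's methods, reads were trimmed with cutadapt, aligned by subread-align to a reference of collapsed mature tRNAs, kept above a mapping quality and summed by featureCounts, with multi-mapped reads split between references. The authors normalized (TMM) and batch-corrected the counts with NOISeqBio. The deposited values are this normalized signal, as 1 mean per group. Near-identical isodecoders can share reads under this counting, and the batches are not named in the sources used here. A further 7 deposited columns hold the authors' own comparison (fold change, probability, theta, q-value and calls) and were not used.

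Log2 ratios of the means were calculated without a pseudocount, with Python 3.11.15, numpy 2.4.6 and pandas 2.3.3. The calculation was checked on simulated means made from known ratios without noise, which tests the code and not the reliability of the values. Figures used matplotlib 3.10.9. Anticodon groups were averaged over isodecoders, which gives the same ratio as their sum. A log2 ratio of 0.5 in size was counted. The study uses this size together with a limit on the q-value, which was not applied here. Genes of all 84 nuclear isodecoders were matched by name in RefSeq (Release 6). The length used is that of the gene, introns included, and of the longest gene where an isodecoder has several. Since reads were aligned to mature tRNAs, levels per base of intron-bearing genes are lower than by mature length. No statistical test between the groups was run, since the planned linear model needs values per sample. Every one of the 8 isodecoders is named, with the 2 others nearest in log2 ratio to SeC-TCA-1-1 and to Trp-CCA-2-X. Members and lists were chosen with earlier results of these data known. Alternatives concerned scaling, pseudocount, low values, the size counted and the way isodecoders were combined.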

Additional observations from a re-analysis of the deposited data

How the results depend on the processing

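With the nuclear median set to 0, the log2 ratios were 0.18 for Cys-GCA, −0.65 for Trp-CCA, 0.97 for SeC-TCA and 0.53 for Phe-GAA, and 4 isodecoders were higher by at least 0.5. With both groups scaled to the same summed nuclear TMM they were 0.21, −0.62, 1.00 and 0.56 in that order, again with 4 isodecoders higher. Averaging the log2 ratios of isodecoders in place of their TMM gave 0.30 for Cys-GCA and −0.57 for Trp-CCA. The difference between SeC-TCA and Trp-CCA was then 1.28, and that between rare and abundant Cys isodecoders 0.56. Leaving out isodecoders below 5000 TMM in both groups removed Cys-GCA-2-1 and Cys-GCA-4-1. Cys-GCA was then −0.10, the rare minus abundant difference 0.19, and 1 isodecoder was higher by at least 0.5. At a size of 1, 0 isodecoders were higher. The count of 1 isodecoder lower by at least 0.5 held under each alternative, and a pseudocount of 100 moved no group ratio by as much as 0.01. For single isodecoders past 0.5 in size, the direction could not turn. The 2 scalings add only 0.27 or 0.30 to each log2 ratio, and a pseudocount cannot change a sign. The signs of Cys-GCA-1-X and Trp-CCA-1-X, both near 0, turned under both scalings. No paired analysis was possible because the table holds 1 mean per group, and leaving out single replicates was not run for the same reason. Depth, and with it the precision of the low means, is unknown.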

Other observations

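The following was noticed after the values had been seen. Trp-CCA-2-X and Gly-GCC-1-X, the nuclear isodecoder nearest to it in log2 ratio, also have genes next to each other. Of the 6 genes of Trp-CCA-2-X, 4 lie between 97 and 221 bases from a gene of Gly-GCC-1-X on chromosome 2R, with 3 Gly genes involved. The log2 ratio was −1.04 for Trp-CCA-2-X and −1.03 for Gly-GCC-1-X, a difference of 0.01. Gly-GCC-1-X comes from 13 genes, and the means do not show which of them contributed.

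Over 31 pairs of nuclear isodecoders whose genes lie within 1000 bases of each other, the median difference in log2 ratio was 0.47 in size, against 0.53 over all 3486 pairs of isodecoders. Of the 31 pairs, only that of Trp-CCA-2-X and Gly-GCC-1-X was as close, and this pair itself set the size counted. A count of at least 1 was therefore fixed in advance, and no conclusion is drawn from it. Of all 3486 pairs, 42 were as close. All 4 genes of Cys-GCA-1-X, at −0.11, lie within 1000 bases of a gene of Lys-CTT-1-X, at −0.32. Of the 8 Phe genes, 1 lies 214 bases from a gene of Val-AAC-1-X, whose log2 ratio was 0.43 against 0.26 for Phe-GAA-1-X. In all, 9 of the 24 genes (37.5%) have such a neighbour, against 32.1% of the 290 nuclear tRNA genes. No test was made of any of these values.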
